A study of Danio rerio with 2 samples.

Results

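Glucagon-led cells are the cells of the zebrafish islet in which a glucagon gene, gcga or gcgb, gave more counts than any other of 8 hormone genes (the glucagon genes gcga and gcgb, the insulin gene ins, the somatostatin genes sst1.1, sst1.2 and sst2, and ghrl and gip for ghrelin and Gip) and at least 1% of the counts of the cell. The rule was applied to cells with at least 500 detected genes and at most 10% of counts in mitochondrial genes. It found 109 glucagon-led cells among 444 cells that passed this filter, 106 of 288 gcgr-/- cells and 3 of 156 control cells, out of 576 sequenced cells. The hormone counts chose the cells, so the levels of these genes are given as a description.

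Cells were isolated from larvae at 7 days postfertilization. The gcgr-/- sample was gcgr-/-;Tg(gcga:GFP), in which both zebrafish glucagon receptor genes, gcgra and gcgrb, were disrupted, and the control sample was Tg(gcga:GFP), labelled wild type. Both samples carried the transgene, in which the gcga promoter drives green fluorescent protein, and sorting for this fluorescence chose the cells, so their choice depended on the activity of that promoter. Islets were picked by hand, cells were sorted into wells, and 3′ end libraries were made by a modified Smart-seq2 protocol. There was 1 sample per genotype, so no test of the genotype and no p value is given, and cells of 1 sample are not replicates. Both samples were submitted as α cells, whereas cells led by another hormone gene outnumbered the glucagon-led cells in each of them.

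In vertebrates, α cells of the pancreatic islet make glucagon, which raises blood glucose by acting on a receptor in the liver. Zebrafish have a pair of proglucagon genes, gcga and gcgb. In mice and zebrafish without glucagon receptor signaling, circulating amino acids rise and α cells multiply.

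Glucagon-led cells made up 36.8% of the gcgr-/- cells (exact Clopper-Pearson interval, 31.2% to 42.7%) and 1.92% of the control cells (0.398% to 5.52%). In the gcgr-/- sample, 99 of the 106 cells were led by gcga and 7 by gcgb. The cell names begin with a letter whose meaning the labels do not give, C, D, E or F in the gcgr-/- sample, and these letters serve here to show the spread inside the sample. The share was 28.8% of 66 cells for C, 38.5% of 78 for D, 43.9% of 66 for E and 35.9% of 78 for F. The part of a cell name before its last field was taken as the library. All 16 gcgr-/- libraries set apart in this way held glucagon-led cells, between 2 and 12 each. Every gcgr-/- letter was above the 1.30% of 77 cells (A) and 2.53% of 79 cells (B) in the control sample. The last fields of the names, taken as cell barcodes, were the same 48 in both samples, each in 12 of the 24 libraries. The gcgb-led cells were uneven, with 5 of the 7 under the letter F. The genotype, the sort and the libraries cannot be told apart between the samples. All intervals given here cover counting error alone, and for ratios of reads they are too narrow if copies made by PCR were counted.

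Glucagon-led gcgr-/- cells had 4031 to 286288 counts (median 27512) and 501 to 2213 detected genes (median 1048), against a median of 26076 counts and 971 genes in the 155 gcgr-/- cells led by another hormone gene. Those cells were led by ins in 54 cases, sst1.1 in 52, sst1.2 in 29, ghrl in 12, sst2 in 6 and gip in 2. Mitochondrial genes took a median of 1.53% of counts in glucagon-led cells and 1.70% in the cells led by another hormone gene, and ribosomal protein genes 13.97% and 18.35%. No doublet caller was run, since cells were sorted into wells.

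Glucagon transcripts took between 1.12% and 52.3% of all counts in a glucagon-led gcgr-/- cell, with quartiles of 4.58%, 14.2% and 27.4%. gcga had 10636 to 443516 counts per 1000000 counts of the cell (CPM) in these cells, with a median of 109827 CPM. gcgb had 30.1 to 260670 CPM, with a median of 31228 CPM. Both genes were counted in all 106 cells, and their levels went together, with a Spearman rho of 0.79 over the 106 cells, a description of cells that share a sample and libraries. gcga had a rho of 0.19 with the total count of a cell and of -0.07 with its number of detected genes.

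**Figure D1:**
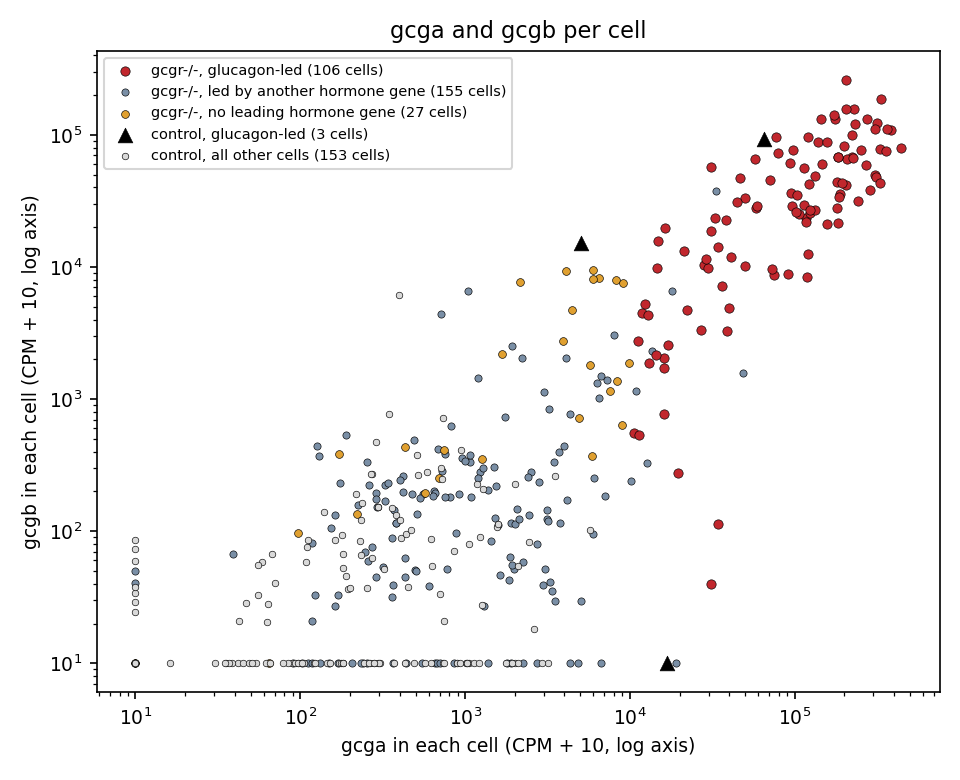
gcga (x axis) and gcgb (y axis) in each of the 444 cells, in CPM plus 10 on log axes; red points are the 106 glucagon-led gcgr-/- cells, black triangles the 3 glucagon-led control cells and the other points all remaining cells. The glucagon-led gcgr-/- cells reach from 10636 to 443516 CPM of gcga, and 1 of the black triangles lies at 0 CPM of gcgb.

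gcgb gave a median of 23.3% of the glucagon counts of a gcgr-/- glucagon-led cell, with a range of 0.0965% to 64.6%. In summed counts the gcgb part was 28.7% in these cells, against 7.84% in ins-led, 39.0% in sst1.1-led and 12.7% in sst1.2-led cells of the same sample. The gcgb part thus differed among these classes in summed counts, which single cells can move. Of all gcgb counts in other-hormone-led gcgr-/- cells, 1 cell held 41.9%. In sst1.1-led cells gcgb had a median of 169 CPM and a maximum of 37670 CPM. gcga was counted in all 54 ins-led cells, at 3207 CPM in sum, and gcgb in 41 of them, at 273 CPM. In the 7 gcgb-led cells gcgb was 15730 to 260670 CPM and gcga 14744 to 204728 CPM, so the cells that gcgb led still had gcga at a high level.

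The limit of 1% cut through a continuous range. The 3 cells just inside it had a leading glucagon gene at 1.06%, 1.12% and 1.13% of counts, and the 3 just outside at 0.980%, 0.942% and 0.938%. Of the 27 gcgr-/- cells that no hormone gene led, 17 had a glucagon gene as the most counted hormone gene. These 27 cells held pnoca at 3112 CPM in sum, between the levels of the hormone-led classes described next.

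The other hormones were low in glucagon-led cells. ins had a median of 342 CPM, sst1.1 of 162 CPM, sst1.2 of 193 CPM, sst2 of 77.2 CPM and ghrl of 90 CPM per cell, and gip was counted in 16 of 106 cells. A hormone of another family reached 1% of counts in 10 of the 106 cells, led by sst1.1 in 4, ins in 2, sst1.2 in 2, ghrl in 1 and sst2 in 1. The highest such value was 8.68% for ins, in a cell that held 56.0% of all ins counts of the glucagon-led cells. The mixed cells were thus few, and 1 cell carried most of the ins signal.

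The label of α cells is described with 4 markers, gcga, gcgb, pnoca and npb. The first pair had chosen the cells, so gcga and gcgb were high by the rule and are no check of the label. pnoca and npb, which the rule did not use, were at least 2-fold higher in glucagon-led than in other-hormone-led gcgr-/- cells and in every letter. Across the 6376 genes measured, 23.8% were at least 2-fold higher and 27% at most 0.5-fold, where measured means at least 10 counts in both classes together and at least 10 CPM in the higher. The median log2 ratio over these genes was -0.13, with quartiles of -1.12 and 0.93. Among the 2991 of them counted in at least 10% of cells of the class in which they were higher, 465 were at least 2-fold higher and 576 at most 0.5-fold. A comparison of cells sorted by their hormone counts is no test, and ratios are given with exact conditional counting intervals.

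pnoca encodes prepronociceptin, the precursor of an opioid-like neuropeptide. It was counted in 104 of 106 glucagon-led cells, from 0 to 33396 CPM with a median of 9608 CPM, against 80 of 155 other-hormone-led cells, from 0 to 11563 CPM. The ranges overlapped at their ends, but the quartiles did not, at 5484 to 13061 CPM against 0 to 66.7 CPM. In sum pnoca had 9817 CPM in glucagon-led and 151 CPM in other-hormone-led cells, a ratio of 64.9 (60.6 to 69.6). By letter, glucagon-led cells had 11698 CPM (C), 8254 CPM (D), 10903 CPM (E) and 8606 CPM (F), against 96.7, 326, 187 and 28.9 CPM in the other cells of the same letters. The level in glucagon-led cells was thus nearly even over the letters, and the ratio of 25.3 to 298 moved mainly with the low side. With each cell thinned to 5000 counts, 97.1% and 26.8% of cells held a pnoca count.

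npb encodes neuropeptide B, a ligand of G protein-coupled receptors. It was counted in 61 of 106 glucagon-led cells, with a median of 40.4 CPM and a maximum of 2504 CPM, and in 11 of 155 other-hormone-led cells, with a maximum of 993 CPM. The summed levels of npb were 138 CPM and 4.55 CPM, a ratio of 30.4 (20.4 to 47.3), and its ratio was 13.9 to 78.3 over the letters. Among the glucagon-led cells neither neuropeptide gene rested on a single cell, since the top cell gave 6.73% of the pnoca counts and 10.5% of the npb counts. The 27 gcgr-/- cells that no hormone gene led had npb at 238 CPM in sum. Of these 27 cells, 17 had a glucagon gene as the most counted hormone gene. A high level of npb was thus not particular to cells above the 1% limit.

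**Figure D2:**
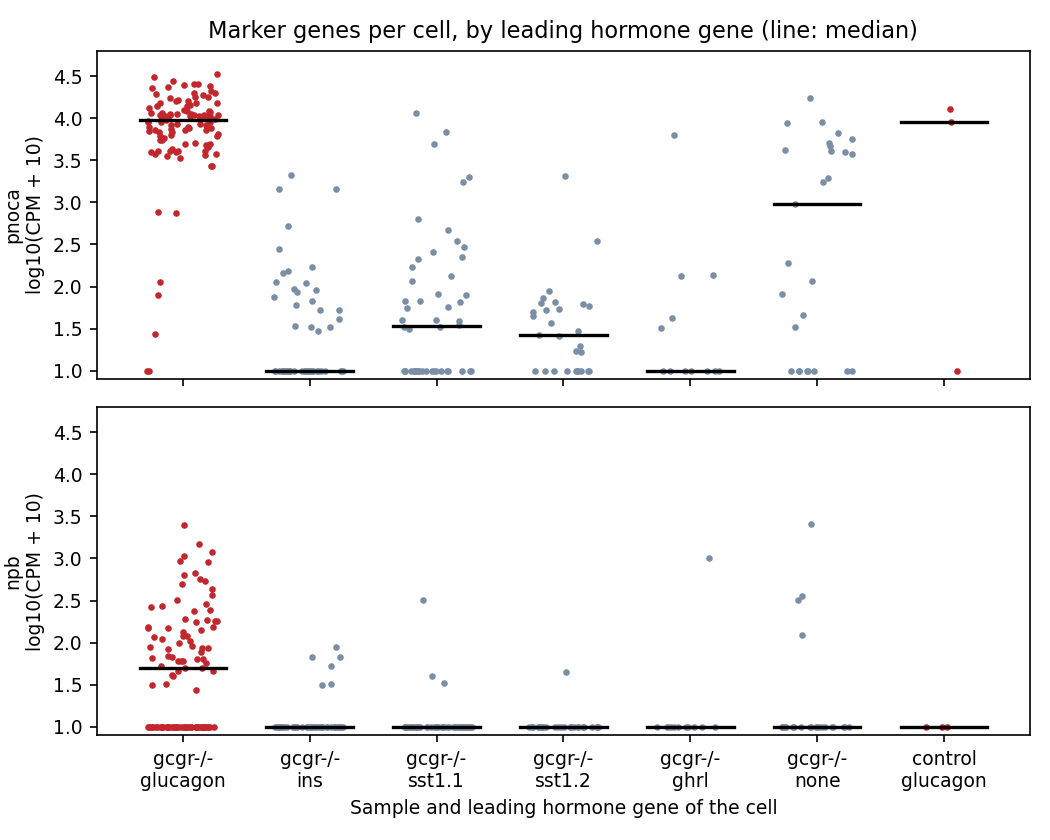
pnoca and npb in each cell as log10(CPM + 10) (y axis), by sample and leading hormone gene (x axis, without the 6 sst2-led and 2 gip-led gcgr-/- cells); each point is 1 cell, red for glucagon-led cells, and the black line is the median. pnoca lies around its median of 9608 CPM in glucagon-led gcgr-/- cells, while npb is at 0 in many of them.

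A small number of glucagon-led cells went against this picture. In 7 of the 106 cells pnoca was under 1000 CPM, a number set after the values were seen, and in the other 99 it was at least 2694 CPM. The 7 cells came from the letters D, E and F, had gcga at 12385 to 120318 CPM and none had a second hormone family at 1%. In 3 of the 7 gcgb was also under 1000 CPM (30.1, 103 and 266 CPM), against 3 of the 99. The 7 cells thus differed among themselves in gcgb, and no test was made.

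Markers of other islet cells were low. Of 6 β-cell markers, 5 were measured and 4 were at most 0.5-fold (ins, which the rule used, pdx1, mnx1 and nkx6.2), where 27% of all genes measured were. mnx1 was counted in 8 of 106 glucagon-led and 8 of 155 other-hormone-led cells. Of its counts in the latter, 1 cell held 52.6%, and its ratio was 3.58 in the letter C. pdx1, a transcription factor of β cells, was counted in 8 of 106 glucagon-led cells at 21.4 CPM in sum, against 90 of 155 other-hormone-led cells at 146 CPM, and 1 cell gave 51.1% of the counts on the glucagon-led side. It was also low in sst1.2-led cells, at 11.96 CPM. sst1.1-led cells had pdx1 at 279.6 CPM, with a count in 38 of 52 cells, and ins-led cells at 181.5 CPM. The contrast in pdx1 was thus not with ins-led cells alone. nkx6.2, a homeobox gene used by zebrafish β cells, had 0 counts in the 106 glucagon-led cells, against 566 counts in 22 of 155 others. With 3 counts over the class taken as the floor, its ratio was 0.00707, with an upper limit of 0.00872. Among the cells the authors kept the ratio was 0.105. nkx6.2 was also low in sst1.2-led cells, at 0.747 CPM. hhex, a transcription factor of δ cells in mice, was 13.4 CPM and 135 CPM. It was also lower in ins-led cells, at 43.6 CPM with a count in 8 of 54 cells, and had no count in ghrl-led cells.

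Markers of cells outside the islet were scarce. The 13 acinar markers summed to 52.7 CPM in glucagon-led and 152 CPM in other-hormone-led cells, with 5 and 6 of the genes at 0. The 8 liver markers summed to 15.5 CPM and 371 CPM, and the 12 blood, immune and vessel markers to 10.7 CPM and 1.82 CPM. The 10 epithelial markers summed to 309 CPM and 1101 CPM, with 0 to 23702 CPM (median 0) and 0 to 12474 CPM (median 294) per cell. Of those, 8 were measured, 1 was at least 2-fold higher and 3 at most 0.5-fold, against 23.8% and 27% of all genes. epcam, an epithelial adhesion protein, was 75.5 CPM and 495 CPM (ratio 0.153). krt18a.1, a simple-epithelium keratin, was 83.5 CPM and 306 CPM, and cldnb was 14.6 CPM and 120 CPM. The higher gene, anxa1a, was 10.9 CPM and 1.09 CPM, with 1 cell holding 91.1% of its counts in glucagon-led cells.

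Transcription factors of the islet went both ways, with pdx1, nkx6.2 and hhex low, and the factors that endocrine cells share closer to even. Of the 25 genes listed, 19 were measured, 4 were at least 2-fold higher and 5 at most 0.5-fold, against 23.8% and 27% of all genes. pax6b, which endocrine cells of several types need, was counted in 98 of 106 glucagon-led and 137 of 155 other-hormone-led cells, at 737 CPM and 1096 CPM. neurod1 (60.0 CPM and 55.9 CPM), isl1 (55.8 CPM and 58.6 CPM) and foxa2 (395 CPM and 312 CPM), general endocrine and endoderm factors, lay within 2-fold in sum. myt1b, a zinc finger gene of endocrine cells, was 955 CPM and 570 CPM and higher in glucagon-led cells in all 4 letters, at 1.24-fold to 1.87-fold. The ghrl-led cells had myt1b at 981.5 CPM and the gcgr-/- cells that no hormone gene led at 887.7 CPM. Its level was thus not particular to glucagon-led cells. insm1b, an endocrine zinc finger gene, was 27.0 CPM and 5.10 CPM, but 1 cell held 49.6% of its counts and without the letter F its ratio was 1.45.

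The 20 genes with the largest ratios were taken among genes with at least 100 CPM and a count in at least 25% of glucagon-led cells, and at least 2-fold above each of the ins-led, sst1.1-led and sst1.2-led classes. Of the genes measured, 13.1% were at least 2-fold higher than each of these 3 classes and 8.85% at most 0.5-fold against each. Of the 20 genes, 17 were above 1 in all 4 letters. The rule chose them by this ratio, which is therefore only described.

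After pnoca came ak5l, annotated as like adenylate kinase 5, a phosphotransfer enzyme of nucleotides, at 546 CPM in glucagon-led and 15.3 CPM in other-hormone-led cells. It was counted in 62 of 106 and 14 of 155 cells, and 1 cell held 30.03% of its counts in glucagon-led cells and 1 other cell 60.7% of those in the rest. pltp, the phospholipid transfer protein of plasma lipoproteins, was counted in 83 of 106 glucagon-led cells at 2136 CPM in sum, against 53 of 155 others at 280 CPM, a ratio of 7.62 (7.22 to 8.05). pltp was 3.70-fold to 24.8-fold higher over the letters and ak5l 9.54-fold to 530-fold, and the ak5l ratio of 35.8 was 15.1 without the letter E and 146 without F. ak5l was thus supported by fewer cells than pltp on both sides.

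Enzymes and regulators made up much of the rest. pcxb, a pyruvate carboxylase, which feeds the citric acid cycle, was 104 CPM and 12.6 CPM, gpd1b, a cytosolic glycerol-3-phosphate dehydrogenase, was 619 CPM and 148 CPM, and igfbp1b, an insulin-like growth factor binding protein, was 118 CPM and 17.3 CPM. rgs5a, a regulator of G protein signaling, was counted in 92 of 106 glucagon-led cells at 872 CPM, against 170 CPM in the others. scinlb, an actin-severing protein of the gelsolin family, was 120 CPM and 27.3 CPM and 2.57-fold to 5.89-fold higher over the letters. tert, the catalytic subunit of telomerase, was 149 CPM and 32.0 CPM and was counted in 31 of 106 and 10 of 155 cells. ndrg2, tomm20b and crtac1a were also higher in all 4 letters, while dachd, ric8a and scin fell under 1 in 1 letter each. Without the letter E the ratio of dachd was 2.03, against 7.24 with all cells, and that of ric8a 2.83, against 5.06. The 27 gcgr-/- cells that no hormone gene led had tomm20b at 448 CPM, ric8a at 290 CPM, igfbp1b at 202 CPM and crtac1a at 160 CPM. Of these 27 cells, 17 had a glucagon gene as the most counted hormone gene. The glucagon-led cells had 228, 114, 118 and 119 CPM, so high levels of these genes were not particular to cells above the 1% limit. For pcxb, rgs5a, scinlb, tert, ndrg2, dachd and scin the cells without a leading hormone gene were lower than the glucagon-led cells. For scinlb they were close, at 109 CPM. The ghrl-led cells had scinlb at 241 CPM and scin at 142 CPM, against 120 and 129 CPM in glucagon-led cells. High levels of scinlb and scin were thus not particular to glucagon-led cells.

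**Figure D3:**
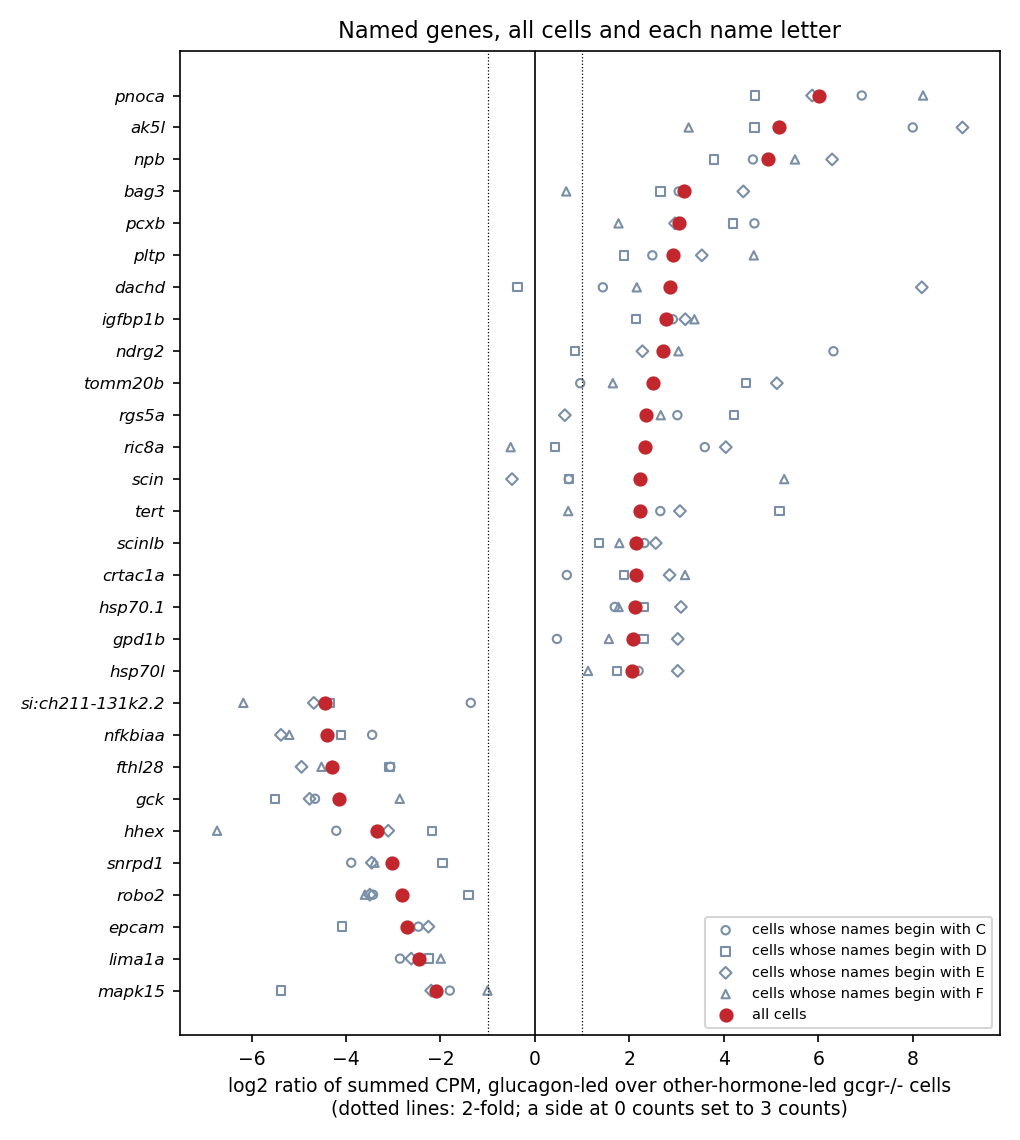
log2 ratio of summed CPM, glucagon-led over other-hormone-led gcgr-/- cells (x axis), for 19 of the 20 genes with the largest and the 10 with the smallest ratios (rows); red points use all cells and open symbols the cells of 1 name letter. pnoca, ak5l and npb lie above 30-fold, and the open symbols of dachd, ric8a and scin reach below 1-fold.

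The 10 genes with the smallest ratios were below 1 in all 4 letters. gck, glucokinase, the glucose sensor of β cells, was counted in 17 of 106 glucagon-led cells at 26.5 CPM in sum, against 120 of 155 other-hormone-led cells at 466 CPM, a ratio of 0.0568 (0.0465 to 0.0688). gck was low by letter as well, with 21.1 CPM (C), 6.89 CPM (D), 21.4 CPM (E) and 55.9 CPM (F) in glucagon-led cells, against 532, 311, 585 and 406 CPM in the others. The ghrl-led cells had gck at 7.24 CPM, so a low level was not particular to glucagon-led cells.

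nfkbiaa, an inhibitor of the transcription factor NF-κB, was 17.96 CPM in glucagon-led and 380 CPM in other-hormone-led cells. robo2, a receptor of Slit guidance proteins, was counted in 23 of 106 glucagon-led cells at 78.9 CPM, against 116 of 155 cells at 552 CPM. lima1a, an actin-binding protein, was 119 CPM and 649 CPM. The others of the 10 were fthl28, hhex, epcam, snrpd1, mapk15 and si:ch211-131k2.2, with ratios of 0.0459 to 0.233.

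Inducible Hsp70 genes and some of their co-chaperones were high in glucagon-led gcgr-/- cells, whereas the median of the cytosolic chaperones as a list was near even. Of 29 cytosolic chaperone genes measured, 8 were at least 2-fold higher, against 23.8% of all genes, and 1, hsf1, was at most 0.5-fold, against 27%. At least 2-fold higher than each of the ins-led, sst1.1-led and sst1.2-led classes were 7, against 13.1% of all genes. Among genes counted in at least 10% of cells of their higher class, 7 of 28 chaperones were at least 2-fold higher and 1 at most 0.5-fold. The shares over all such genes were 15.55% and 19.26%. The list had a median log2 ratio of -0.04, so its members moved unequally. hsp70l, an inducible member of the Hsp70 family, was counted in all cells of both classes, with a median of 38552 CPM and a range of 52.7 to 183042 CPM in glucagon-led cells. Its summed level was 49255 CPM, against 11847 CPM in other-hormone-led cells, a ratio of 4.16 (4.12 to 4.19). By letter hsp70l was 76851 CPM (C), 44867 CPM (D), 56725 CPM (E) and 23994 CPM (F), against 16782, 13435, 6979 and 11006 CPM. The classes overlapped cell by cell, and all 4 letters had the same direction.

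The same direction was found for hsp70.1 (6160 CPM in glucagon-led and 1423 CPM in other-hormone-led cells), hsp70.2 (17884 CPM and 5185 CPM) and hsp70.3 (8120 CPM and 2607 CPM), near-identical genes among which reads may be shared out. It was found as well for the co-chaperones dnajb1b (1210 CPM and 337 CPM) and bag3 (253 CPM and 28.6 CPM), and for the small heat shock protein hspb1 (8165 CPM and 3471 CPM). hspa8, the constitutive Hsp70, was 784 CPM and 984 CPM. The 8 chaperonin subunits listed, cct2 to cct8 and tcp1, had ratios of 0.531 to 0.902 in sum, and cct3 and cct4 alone of them were below 1 in all 4 letters. Within the list, the inducible genes named here thus had higher ratios than hspa8 and the chaperonins. The 27 gcgr-/- cells that no hormone gene led had hsp70.1 at 7017 CPM and bag3 at 233.5 CPM. Of these 27 cells, 17 had a glucagon gene as the most counted hormone gene. High levels of hsp70.1 and bag3 were thus not particular to cells above the 1% limit.

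Levels of these genes also differed between the samples. In the control sample, cells led by another hormone gene had hsp70l at 47141 CPM and hsp70.1 at 17749 CPM, so the glucagon-led gcgr-/- cells were close to them for hsp70l and below them for hsp70.1. The sort, the libraries and the genotype cannot be told apart between samples, and the part of stress during isolation in these levels was not tested.

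Of 16 endoplasmic reticulum folding genes measured, 1 was at least 2-fold higher and 1 at most 0.5-fold, against 23.8% and 27% of all genes. hspa5, the main chaperone of the endoplasmic reticulum, was 5456 CPM in glucagon-led and 7702 CPM in other-hormone-led cells, hsp90b1 was 469 CPM and 873 CPM, and pdia3, a disulfide isomerase, was 255 CPM and 477 CPM. canx, the lectin chaperone calnexin, was 58.5 CPM and 12.01 CPM, with a ratio of 0.460 to 28.5 over the letters. canx was thus higher in sum but not in every letter.

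Ferritin genes were lower in glucagon-led than in other-hormone-led gcgr-/- cells. Of the 7 genes of iron and metal storage measured, 5 were at most 0.5-fold, against 27% of all genes, and all 5 were so against each of the 3 classes, against 8.85%. fthl27, a ferritin heavy chain-like gene for iron storage, was counted in 105 of 106 glucagon-led cells at 8939 CPM in sum, against 154 of 155 others at 29294 CPM, a ratio of 0.305 (0.302 to 0.309). By letter fthl27 was 9673 CPM (C), 6632 CPM (D), 10686 CPM (E) and 8463 CPM (F), against 35561, 25418, 34970 and 20901 CPM. The ratio was 0.261 to 0.405 over the letters, so all 4 had the same direction.

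fthl28 (35.4 CPM and 692 CPM), fthl29 (47.8 CPM and 159 CPM) and fthl31 (708 CPM and 2306 CPM) were low in the same way, and the copies resemble each other, so reads may be shared among them. bach1b, a repressor of ferritin and heme oxygenase genes in mammals, was also lower, at 62.4 CPM and 230 CPM. fth1a, another ferritin heavy chain gene, was 601 CPM and 697 CPM, and the metallothionein gene mt2 was 1143 CPM and 849 CPM. Control cells led by another hormone gene had fthl27 at 3013 CPM and bach1b at 0.805 CPM, so glucagon-led gcgr-/- cells stood between the other-hormone-led cells of the gcgr-/- and control samples for both genes. The gcgr-/- cells that no hormone gene led had fthl27 at 10830 CPM, fthl29 at 64.4 CPM, fthl31 at 771 CPM and bach1b at 64.4 CPM. Low levels of these genes were thus not particular to cells above the 1% limit. fthl28 was 316 CPM in the cells that no hormone gene led.

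Of 13 antioxidant genes measured, 1 was at least 2-fold higher and 2 at most 0.5-fold, against 23.8% and 27% of all genes. gpx4a, a glutathione peroxidase that reduces lipid peroxides, was counted in 87 of 106 glucagon-led cells with a median of 565 CPM, against 78 of 155 others. The summed level of gpx4a was 689 CPM and 185 CPM, a ratio of 3.72 (3.46 to 4.002), and it was 2.29-fold to 5.03-fold higher over the letters. gsr, glutathione reductase, was 2.67 CPM and 23.5 CPM, and sqstm1, an autophagy receptor, was 1225 CPM and 1705 CPM. The set had no common direction.

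Genes of glucose use went both ways. Of 26 measured, 8 were at least 2-fold higher and 4 at most 0.5-fold, against 23.8% and 27% of all genes. pklr, pyruvate kinase of liver and red cells, was 608 CPM and 249 CPM, with 1 cell holding 38.3% of its counts in glucagon-led cells, and its ratio of 2.44 was 1.46 without the letter F. gapdhs, the glyceraldehyde-3-phosphate dehydrogenase gene counted in most cells, was 2473 CPM and 3291 CPM. Together with gck above, the list held genes far apart in both directions.

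Genes for hormone processing and release were mostly within 2-fold in summed counts. Of 12 granule genes measured, none was at least 2-fold higher, against 23.8% of all genes, and 3 were at most 0.5-fold, a share near the 27% of all genes. Of 16 exocytosis genes measured, 2 were at least 2-fold higher and 3 at most 0.5-fold. With each cell thinned to 5000 counts, 9 exocytosis genes were at least 2-fold higher, where 23.6% of all genes measured were. Over the alternatives 0 to 9 were at least 2-fold higher and 1 to 5 at most 0.5-fold, so this count depended on the setting. pcsk2, the prohormone convertase that frees glucagon, was 29.9 CPM and 45.3 CPM, pcsk1, the convertase that frees glucagon-like peptides, was 23.8 CPM and 36.0 CPM, and scg3, a secretogranin, was 115 CPM and 149 CPM. cpe, carboxypeptidase E, was 13.1 CPM and 38.4 CPM, a ratio of 0.341 that was 0.971 with cells thinned to 5000 counts. vgf, a granin, was 21.1 CPM and 74.1 CPM, a ratio of 0.285 that was 0.106 without the letter D. chga, chromogranin A, was 117 CPM and 59.5 CPM, a ratio of 1.96 that was 3.46 as a mean over cells and 3.34 without the letter C. In glucagon-led cells, 1 cell held 33.3% of the cpe counts and 47.1% of the vgf counts.

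**Figure D4:**
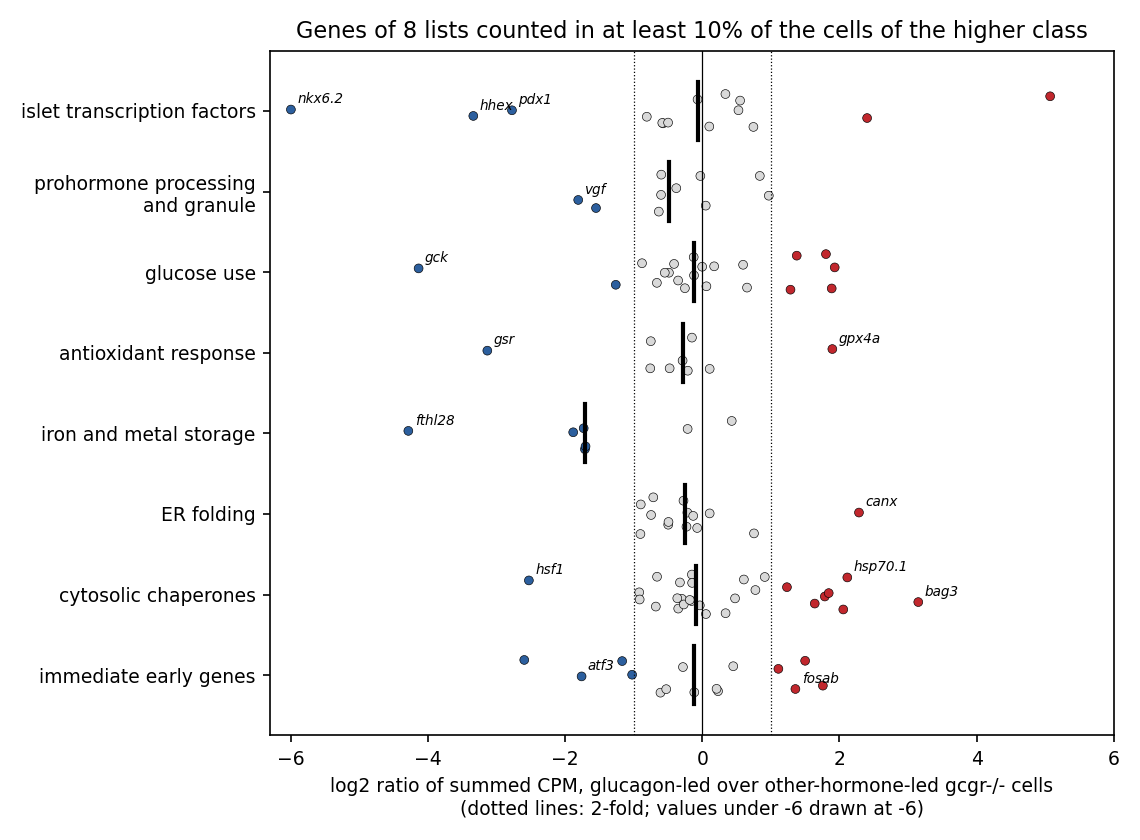
log2 ratio of summed CPM, glucagon-led over other-hormone-led gcgr-/- cells (x axis), for the genes of 8 lists (rows) that reached a count in 10% or more of cells in their higher class; each point is 1 gene, the black bar is the median, and red and blue mark genes at least 2-fold higher and at most 0.5-fold. Iron and metal storage has 5 of 7 genes at most 0.5-fold, against 19.26% of all genes counted in as many cells. Of the 28 cytosolic chaperones drawn, 7 are at least 2-fold higher, against 15.55% of all such genes.

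Amino acids are known to act on α cells through transporters and the kinase complex mTORC1. Of 11 amino acid transport genes measured, 3 were at least 2-fold higher and 4 at most 0.5-fold. Of 8 genes of the mTORC1 pathway measured, these numbers were 2 and 1. The shares over all genes were 23.8% and 27%. For tsc1a, 1 of the 2 higher mTORC1 genes, 1 cell held 98.1% of the counts in glucagon-led cells. slc38a2, a transporter of neutral amino acids, was 76.7 CPM and 60.4 CPM in glucagon-led and other-hormone-led cells, and slc3a2b, the heavy chain of several transporters, was 191 CPM and 288 CPM. eif4ebp3l, a translation repressor that mTORC1 phosphorylates, was 30.8 CPM and 13.8 CPM, a ratio of 2.23 (1.67 to 3.003), and higher in all 4 letters at 1.59-fold to 4.57-fold. Without the cells that held a second hormone family at 1% its ratio was 1.52. Of 21 peptide receptor genes only 2 were measured, and neither differed by 2-fold.

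Among immediate early genes, 6 of 18 measured were at least 2-fold higher and 4 at most 0.5-fold, against 23.8% and 27% of all genes. fosab, a Fos gene, was counted in 88 of 106 glucagon-led cells at 1978 CPM in sum, against 100 of 155 others at 772 CPM, with 1083 CPM and 1045 CPM in the letter D. atf3, a stress-induced transcription factor, was lower, at 431 CPM and 1460 CPM, with a ratio of 0.231 to 0.344 over the letters. Control cells led by another hormone gene had fosab at 4297 CPM and atf3 at 163 CPM. As with hsp70l and fthl27, the glucagon-led gcgr-/- cells were on the side of the control cells for both genes when set against the other gcgr-/- cells, and what separates these classes was not tested. Other named genes went the other way. gpx4a was 689 CPM in glucagon-led and 185 CPM in other-hormone-led gcgr-/- cells, and 85.0 CPM in other-hormone-led control cells. In the same order hhex was 13.4, 135 and 185 CPM.

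Within the 106 glucagon-led gcgr-/- cells, 363 genes counted in at least 50% of cells were set against gcga. gcgb, with its rho of 0.79, was not among the 363, and their Spearman rho with gcga had a median of -0.06. Of the 363, dkk3b, a secreted protein of the Dickkopf family, went most closely with gcga, with a rho of 0.53 over 106 cells (0.34 to 0.77 over the letters). With the cells split into 36 with the lowest, 35 with middle and 35 with the highest gcga, dkk3b had 587 CPM in the lowest, 1315 CPM in the middle and 2012 CPM in the highest cells. dkk3b was also 1439 CPM in glucagon-led and 304 CPM in other-hormone-led cells, and counted in 94 of 106 and 72 of 155 of them. Among the latter, sst1.1-led cells had 816 CPM, with a count in 32 of 52 cells, and ins-led cells 83.0 CPM. In the letter C the levels were 599 CPM and 509 CPM. The next highest were CABZ01073265.1 (0.46), pklr (0.39), grn1, a progranulin gene (0.32), and prdx4, a peroxiredoxin of the endoplasmic reticulum (0.31).

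hsp90aa1.2, an inducible Hsp90, had the lowest rho with gcga, -0.53, and was negative in every letter. Its level was 66241 CPM in the lowest, 49548 CPM in the middle and 29094 CPM in the highest of these sets. The counts of gcga are part of the total of each cell, so a high gcga lowers the CPM of every other gene. With the 8 hormone genes left out of the totals, the rho of hsp90aa1.2 was -0.35, that of dkk3b 0.62, and the median over the 363 genes 0.04. pltp (-0.435), hspa4a (-0.43), pdcd4b (-0.44) and CABZ01080568.1 (-0.50) followed. pnoca had a rho of 0.05 with gcga, and of 0.31 with the hormone genes left out, and its level was 10235 CPM in the lowest, 10126 CPM in the middle and 9387 CPM in the highest set.

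**Figure D5:**
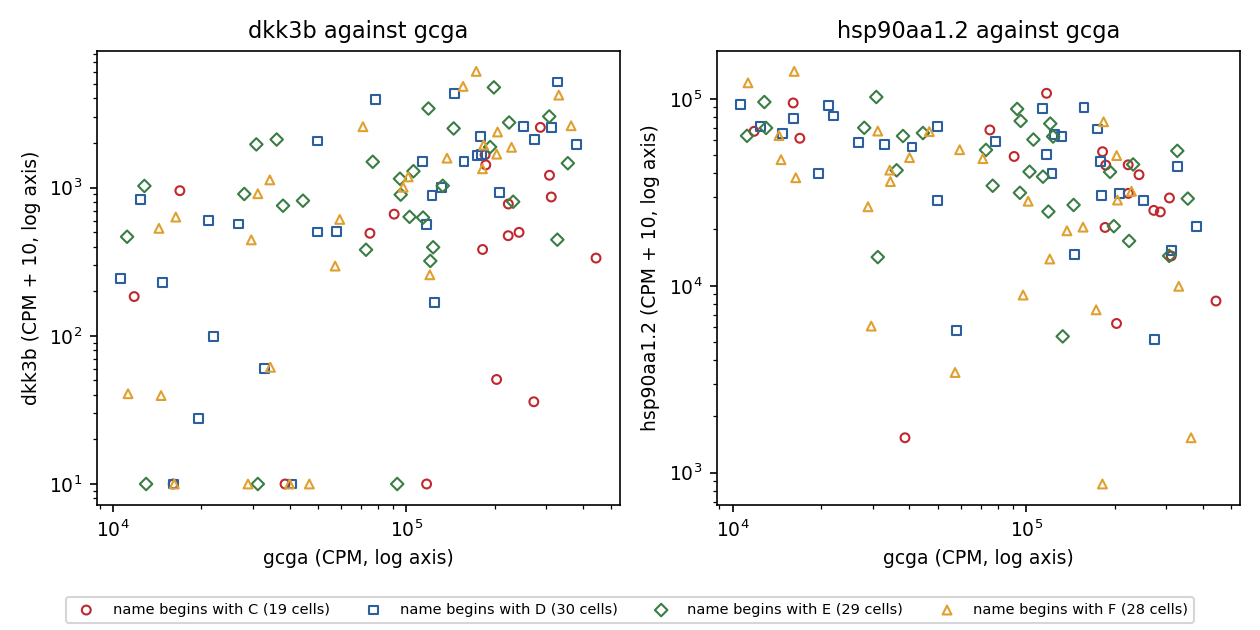
dkk3b (left panel) and hsp90aa1.2 (right panel) in CPM plus 10 on a log y axis, against gcga in CPM on a log x axis; each point is 1 of the 106 glucagon-led gcgr-/- cells, and symbols give its name letter. The rho was 0.53 for dkk3b and -0.53 for hsp90aa1.2.

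The 3 glucagon-led control cells are too few for a class and are given one by one. The first, led by gcgb, had 58983 counts, gcga at 5018 CPM, gcgb at 15208 CPM and pnoca at 8918 CPM. The second, also led by gcgb, had 32129 counts, gcga at 65268 CPM, gcgb at 92782 CPM and pnoca at 12792 CPM. The last, led by gcga, had 18595 counts, gcga at 16671 CPM and no count of gcgb or pnoca. The first pair thus lay near the median pnoca level of the glucagon-led gcgr-/- cells, and the last did not have the markers at its depth. npb was counted in none of the 3.

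ak5l was 3221 CPM and 2646 CPM in the first and second control cell and 0 in the last, against a median of 110 CPM in the gcgr-/- glucagon-led cells. gck, hhex and crtac1a had no count in any of the 3 control cells. hsp70.1 was 24363, 30160 and 32858 CPM in them, against a median of 1203 CPM and a maximum of 45323 CPM in glucagon-led gcgr-/- cells. These are single cells, and no difference between genotypes is read from them.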

How the data were processed

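Single cells from 1 gcgr-/- and 1 control sample were measured. Per the paper's methods and the submitters' processing notes, the authors used Trim Galore for trimming, STAR for alignment (build GRCz11) and featureCounts over coding regions, and they deposited the resulting raw counts in 4 tables (all cells and kept cells of each sample). Collapsing of molecular identifiers is not stated. Genes were joined by position, because 17 names were spelled differently. No coordinates or sequences are given.

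Counts were summed over the cells of a class and scaled to a total of 1000000 (CPM), with Python 3.11.15, numpy 2.4.6, pandas 2.3.3, scipy 1.17.1 and matplotlib 3.10.9. Shares have Clopper-Pearson intervals and ratios exact conditional intervals at the 95% level. A side at 0 counts was set at 3 counts. No test was made with 1 sample per genotype. The calculation of ratios was tested on simulated data that held counting error alone. Spread between cells was not simulated, so how the intervals hold under it was not tested. The members and gene lists were chosen with earlier results of these data known. Named were the 8 hormone genes and α-cell markers, the 20 largest and 10 smallest ratios by the rule in the text, members of 24 lists, and the 5 highest and 5 lowest correlations with gcga. Some genes that these rules name are not reported here, though the counts include them. Alternatives were the cells the authors kept, at least 750 detected genes, a leading hormone at 5%, each letter left out, totals without hormone genes, means over cells, thinning to 5000 counts, no cells with a second hormone family, ins-led cells as the only other class and, added after the data were seen, the deepest glucagon-led cell left out and genes counted in at least 10% of cells.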

Additional observations from a re-analysis of the deposited data

How the results depend on the processing

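The share of glucagon-led gcgr-/- cells was 51.3% among the cells the authors kept, which held 1 of the 54 ins-led cells, and 24.3% with a leading hormone at 5% of counts, against 36.8%. Keeping only genes found in 10% or more of cells in their higher class, an alternative chosen after seeing the data, left 465 genes at least 2-fold higher and 576 at most 0.5-fold, of 2991, against 1515 and 1722. Under the other alternatives the counts were 1474 to 1921 and 1633 to 2194. Higher genes made up 46.8% of all calls, 42.9% with a leading hormone at 5% and 53.6% against ins-led cells only.

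Of the 20 genes with the largest ratios 17 stayed at least 2-fold higher under all 13 alternatives run for single genes, and the 10 with the smallest stayed at most 0.5-fold. The exceptions were scin (1.20 without the letter F), scinlb (1.75 in kept cells and 1.94 after thinning) and crtac1a (1.72 as a mean over cells). Against ins-led cells only, sst2 (3.01), ghrl (1.52), gip (1.15), pyyb (1.54), pdyn (2.23) and slc7a7 (2.84) turned to higher, since the cells that carry these genes then leave the comparison. pyyb also turned to 1.34 without the letter F, and 1 cell held 77.5% of its counts in other-hormone-led cells. hspb1 was 1.18 with a leading hormone at 5% and fosab 1.72 against ins-led cells only. eif4ebp3l was at least 2-fold higher under 10 of 13 alternatives (1.52 to 4.16), pklr under 9 (1.41 to 3.46) and chga under 3 (1.26 to 3.46), and cpe was at most 0.5-fold under 11 (0.239 to 0.971). bag3 was 4.755 without the letter E, against 8.87. Chaperones at least 2-fold higher numbered 6 to 10 and iron and metal storage genes at most 0.5-fold 5 to 6 over the alternatives. Counts of many lists, that of exocytosis genes among them, moved by more than 1.5 times under at least 1 alternative, and the cause was not tested. No paired analysis was possible because there was 1 sample per genotype.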

Other observations

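The peptide genes pyyb and pdyn were counted in glucagon-led gcgr-/- cells and in other hormone classes. pyyb, a peptide YY gene, was counted in 69 of 106 glucagon-led cells at 423 CPM, and in 43 of 52 sst1.1-led cells at 4920 CPM, 13 of 54 ins-led cells at 275 CPM and 11 of 12 ghrl-led cells at 596 CPM. In single cells it ranged from 0 to 7754 CPM in glucagon-led cells and from 0 to 143560 CPM in sst1.1-led cells. pdyn, the prodynorphin gene, was 52.7 CPM in glucagon-led and 322 CPM in other-hormone-led cells.

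The 27 gcgr-/- cells that no hormone gene led held pnoca in 19 cells. Their ak5l level was 391 CPM and their pltp level 1751 CPM, against 546 CPM and 2136 CPM in glucagon-led cells.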
